A study of Mus musculus with 4 samples.

Results

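Integrins are the receptors by which cells hold on to the extracellular matrix and to each other. Each is a pair of 1 α and 1 β subunit, the α subunit largely sets which ligand is bound, and the β1 subunit pairs with most of the α subunits found in muscle. In the muscle lineage, laminin receptors anchor fibres to the basement membrane, while fibronectin and VCAM-1 receptors serve migrating and fusing myoblasts. The 10 integrin genes described here were chosen by name as subunits of myoblasts, out of 19751 named genes on the array. They are the α subunits Itga1, Itga3, Itga4, Itga5, Itga6, Itga7 and Itgav and the β subunits Itgb1, Itgb3 and Itgb5. All non-control probes whose transcript accession maps to one of these symbols were kept, which gave 15 probes, and 5 of the genes had 1 probe each.

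RNA came from cultures of C2C12, an established line of mouse myoblasts whose cells fuse into myotubes in low serum, harvested on day 3 of differentiation. The treated cells received interferon-γ (IFN-γ), the cytokine of activated T and NK cells, at 1 ng/ml, and the control cells received none. The study asked how IFN-γ changes transcription of genes that matter for skeletal myogenesis. Each of 4 arrays set treated RNA, always in Cy5, against control RNA, always in Cy3, from 8 µg of total RNA, so a dye bias of a probe and the treatment cannot be told apart. The labels number the arrays as biological replicates 1 to 4, but nothing in them says that each control came from its own culture. The p-values therefore reflect only how the 4 arrays differ, and some of that may be technical. Horse serum in the differentiation medium is given as 2% in one label and 10% in another. All 4 arrays lay on 1 slide with 1 scan, so there was no slide or scan batch to compare.

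Median spot intensities lay between 149.5 and 264 in the treated channel and between 79.8 and 97 in the control channel. Between 28548 and 30148 probes per array were well above background in the treated channel, against 22453 to 25905 in the control channel. The number of arrays, 4, limits the precision of all values below. Across probes the log2 ratios of array pairs correlated at 0.54 to 0.89, and replicate 2 had the lowest mean correlation with the others, 0.62. The marker genes of myoblasts and myotubes were measured on all 4 arrays in both channels for Myod1, Myf5, Myog, Des, Ckm, Myh3, Mymk, Chrna1, Acta1 and Cdh15. Their summed level, with Pax7, was 235400 to 297800 in treated cells and 321600 to 405300 in control cells. In this linear sum Myh3, at a mean log2 intensity of 16.57 in treated and 17.19 in control cells, weighed most. Of 11 such genes, 4 fell and 1 rose, beside 12.9% of all tested genes called lower and 18.8% higher. Among those that fell were Des, the muscle intermediate filament gene, at −1.23 ± 0.26 on the log2 ratio scale, and Ckm, muscle creatine kinase, at −1.12 ± 0.73 (SD, n = 4 each). The gene that rose was Myf5, at 0.60 ± 0.15 (adjusted p = 0.00485). Myod1, Myog and Pax7, at −0.02, −0.008 and 0.05, did not pass. These are values by loess, and the Ckm call was lost without replicate 1, 3 or 4, at −1.24, −1.15 and −1.33. With each array centred on its median instead, 7 of the 11 marker genes were called higher and 1 lower. Of all 28921 tested probes, 16438 were called higher and 6357 lower under that scaling. Des (−0.21) and Ckm (−0.15) were no longer called there. Levels of Acta1, skeletal α-actin, differed by −0.36 ± 0.57 and did not pass (adjusted p = 0.258), with 0.68 under median centring. Fewer differentiated cells and less RNA per cell cannot be told apart in such bulk samples, and the part of this shift in the integrin values was not tested.

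Of the 15 integrin probes, 13 were tested, and at least 1 probe of each of the 10 genes was among them. The measure throughout is the log2 ratio of IFN-γ-treated over control cells, the mean over the 4 arrays with its SD, and a probe was called at a limma adjusted p under 0.05. Expression changed for 6 of the 13 tested probes, 3 higher and 3 lower, which is 46.2% beside 29.1% of all 28921 tested probes. Over all tested probes 16.5% were called higher and 12.6% lower. The median log2 ratio of the integrin probes was −0.017, against 0.014 for all tested probes, and the median absolute value was 0.33, against 0.17. Channel intensities of treated and control cells did not overlap for 5 of the 13 probes, beside 29.5% of all tested probes. By loess no integrin probe changed by 2-fold or more over the 4 arrays, a size that 741 of the called probes reached. Under median centring, where 6705 called probes reached it, the brighter Itgav and Itgb1 probes, Itgb5 and Itga5 did, at 1.55, 1.40, 1.21 and 1.18. Taking each gene by its tested probe with the higher mean signal, Itgav and Itgb1 were higher, Itga6 and Itga4 were lower (but above 0 under median centring) and 6 genes did not pass, beside 31.7% of the 15673 tested genes called, 18.8% higher and 12.9% lower. Median centring in place of loess set the median of all tested probes at 0.50, and directions and calls below are by loess unless another scaling is named. The count of calls also moved with single arrays: it was 4 higher and 5 lower without replicate 2, 0 and 2 without replicate 3, and 1 and 2 without replicate 4.

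**Figure D1:**
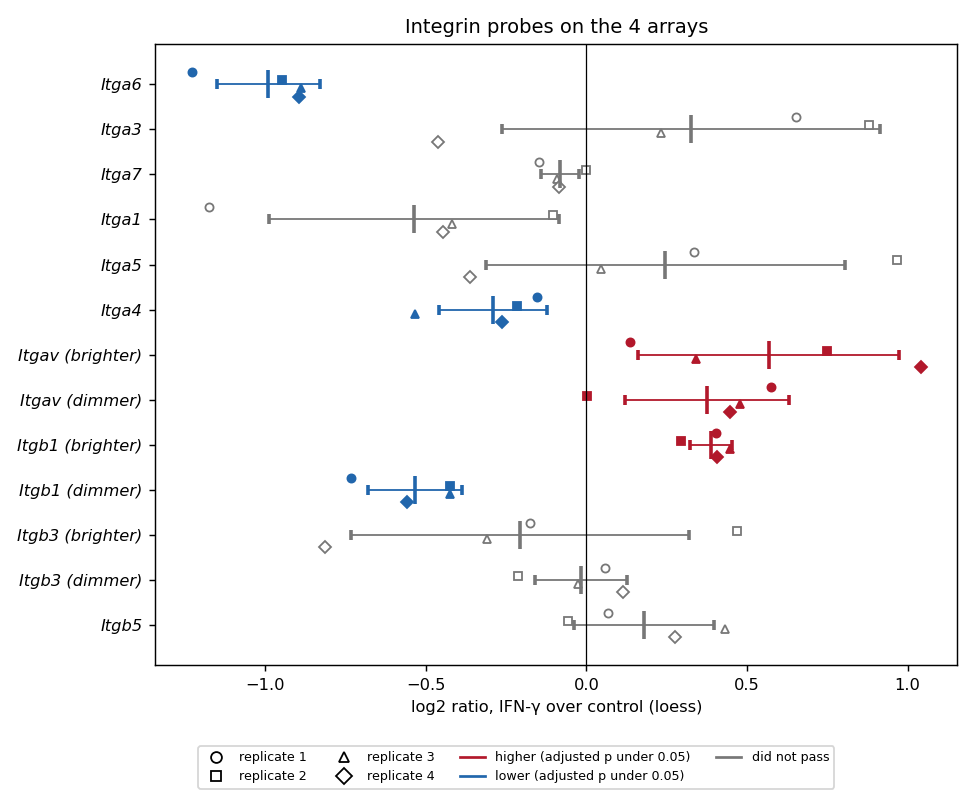
Log2 ratio of IFN-γ over control for the 13 tested integrin probes, with 1 symbol per array, a vertical mark at the mean and whiskers of 1 SD. The 4 Itga6 values sit between −1.23 and −0.89, the 2 Itgb1 probes lie on opposite sides of 0, and Itga3, Itga5 and the brighter Itgb3 probe spread over both sides; under median centring Itga6 was 0.026, Itga4 was 0.068 and the dimmer Itgb1 probe was 0.39.

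RefSeq promoter windows, each from 250 bases before to 50 bases after a gene's start on GRCm38.p6, were given for 7 of the 10 genes in 8 windows, none of them for Itga6, Itga7 or Itgb3. They are shown for Itga4, Itgav and Itgb1, the called genes that have one, to set the letters beside the expression values that follow. Capitals mark the E-box CAGCTG, a form of the motif that myogenic bHLH factors such as MyoD bind, and the GC box GGGCGG or its reverse complement, which Sp1 binds. The Itga4 window is chr2:79255176-79255475 on the plus strand, with an E-box from position −125 and a GC box from −114, counted from the gene's start. The Itgav window is chr2:83724147-83724446 on the plus strand, with a GC box from position 8. The Itgb1 window is chr8:128685404-128685703 on the plus strand, with a GC box from position −151.
Itga4: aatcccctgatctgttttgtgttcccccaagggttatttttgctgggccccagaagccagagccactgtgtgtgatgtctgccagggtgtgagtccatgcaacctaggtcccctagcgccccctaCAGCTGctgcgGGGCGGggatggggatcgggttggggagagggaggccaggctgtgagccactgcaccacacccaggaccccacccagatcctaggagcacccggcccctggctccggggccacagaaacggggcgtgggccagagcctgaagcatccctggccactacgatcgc
Itgav: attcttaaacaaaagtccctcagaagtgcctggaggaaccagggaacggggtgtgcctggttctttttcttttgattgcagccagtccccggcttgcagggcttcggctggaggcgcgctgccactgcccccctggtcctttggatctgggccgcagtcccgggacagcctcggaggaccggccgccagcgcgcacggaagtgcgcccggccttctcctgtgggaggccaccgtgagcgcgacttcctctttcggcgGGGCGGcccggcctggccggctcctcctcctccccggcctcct
Itgb1: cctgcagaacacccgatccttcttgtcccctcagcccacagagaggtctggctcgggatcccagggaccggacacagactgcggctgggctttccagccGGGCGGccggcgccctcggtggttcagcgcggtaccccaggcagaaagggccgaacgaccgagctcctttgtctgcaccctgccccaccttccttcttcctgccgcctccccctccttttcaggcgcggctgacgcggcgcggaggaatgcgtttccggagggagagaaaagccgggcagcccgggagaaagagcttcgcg

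The pattern TTTCNNTTTC, a core of the element bound by interferon regulatory factors, was in 1 of the 8 integrin windows on either strand, that of Itga3, beside 3.44% of all 32851 promoter windows. The E-box was in 4 of 8, those of Itga1, Itga4, Itga5 and Itgb5, beside 16.3% of all windows. The GC box was in 7 of 8, beside 35.7% of all. These matches describe letters in short windows, and a window without a match says nothing of the factor.

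Among the laminin receptors, Itga6 showed the largest change of any integrin gene in the list. Itga6 encodes α6, which pairs with β1 as a laminin receptor of myoblasts and other cells. Its log2 intensity was 13.12, 13.23, 13.36 and 13.29 in treated cells and 14.35, 14.17, 14.25 and 14.18 in control cells, for replicates 1 to 4. All 4 treated values lay below all 4 control values. The log2 ratio was −1.23, −0.95, −0.89 and −0.89, with a mean of −0.99 ± 0.16 (SD, n = 4), so that the level fell by 49.6% in treated cells (95% interval of the log2 ratio −1.19 to −0.79, adjusted p = 0.00133). Of the 28921 tested probes, 361 or 1.25% had a mean at or below it. The call held without each array in turn, with means of −1.02 to −0.91, and when arrays were centred on the tested probes, at −0.45. Under median centring the ratio was 0.026 and did not pass, while probes of like brightness, within 0.5 log2 units of mean signal, had a median of 0.97 there. Set against those probes Itga6 stood at −0.94, a comparison that repeats what loess does and is no separate check.

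The 3 genes outside the list whose 4 array values lay nearest to those of Itga6 were Rbm20, Stra6 and Tram2, by Euclidean distance over the 4 log2 ratios of each gene's brightest tested probe. Rbm20, which encodes a splicing regulator of titin, lay at a distance of 0.147 with a mean of −0.99. Stra6, the gene of a membrane receptor for retinol-binding protein, lay at 0.148 with a mean of −0.97. Tram2 lay at 0.192 with a mean of −0.99.

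Itga7 encodes α7, which with β1 forms the main laminin-binding integrin of differentiated skeletal muscle. Its intensity was 16.36, 16.31, 16.47 and 16.32 in treated cells and 16.51, 16.31, 16.56 and 16.40 in control cells, and the groups overlapped. The log2 ratio was −0.15, −0.0026, −0.09 and −0.09, with a mean of −0.08 ± 0.06 (SD, n = 4), and did not pass (adjusted p = 0.345). The 95% interval of the log2 ratio was −0.23 to 0.06. Median centring gave 0.96, where probes of like brightness had a median of 0.99, and centring on the tested probes gave 0.49, both called higher.

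Itga3 encodes α3, a receptor for laminins of epithelial and other basement membranes, and its values scattered between arrays. The treated intensities were 8.54, 8.55, 7.94 and 7.79, against 7.88, 7.67, 7.70 and 8.25 in control cells. Treated cells were higher on replicates 1 to 3 and lower on replicate 4. The mean log2 ratio was 0.33 ± 0.59 (SD, n = 4), with an interval of −0.21 to 0.86 and an adjusted p of 0.309, and 0.77 under median centring was called higher.

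Itga1 encodes α1, which pairs with β1 as a receptor for collagens, collagen IV among them. Its measured probe had intensities of 10.57, 11.07, 10.07 and 11.26 in treated cells and 11.74, 11.18, 10.49 and 11.70 in control cells. Treated cells were lower on every array, but the groups overlapped and the size ran from −0.10 on replicate 2 to −1.17 on replicate 1. The mean of −0.54 ± 0.45 (SD, n = 4) missed the threshold (interval −0.96 to −0.12, adjusted p = 0.0636), and median centring gave 0.44, called higher. Without replicate 2 the probe was called lower, at −0.68 (adjusted p = 0.00989), and without replicate 1 it was at −0.32 (adjusted p = 0.0934). Centring on the tested probes gave −0.031. The second Itga1 probe was not well above background in either channel on any array.

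Itga5 encodes α5, which with β1 forms the classical fibronectin receptor. Its intensity was 10.33, 10.83, 9.96 and 10.12 in treated cells and 9.99, 9.86, 9.92 and 10.48 in control cells. The log2 ratio was 0.33, 0.97, 0.04 and −0.36, and its mean of 0.25 ± 0.56 (SD, n = 4) did not pass (interval −0.26 to 0.76, adjusted p = 0.416). It was 0.0063 without replicate 2, and was called higher under median centring, at 1.18, and centring on the tested probes, at 0.71. Feature Extraction's own error per array for this ratio was 0.20 to 0.22 on the log2 scale, smaller than the SD between arrays.

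Itga3, Itga5 and the brighter Itgb3 probe shared the order of the arrays, with the log2 ratio highest on replicate 2, then 1, 3 and 4. Replicate 4 had the highest control intensity for all 3 of these probes. Ckm and Acta1 had their lowest ratios on replicate 2, −2.17 and −1.18. Whether differentiation differed between the cultures of each array was not tested.

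Itga4 encodes α4, which pairs with β1 to bind VCAM-1 and fibronectin and takes part in myoblast contact. Its measured probe had intensities of 7.77, 7.85, 7.54 and 7.54 in treated cells and 7.92, 8.06, 8.07 and 7.80 in control cells. Treated cells were lower on all 4 arrays, with overlapping groups, at −0.15, −0.21, −0.53 and −0.26. The mean of −0.29 ± 0.17 (SD, n = 4) means that the level fell by 18.3% in treated cells, and the probe passed narrowly (adjusted p = 0.0446), while median centring gave 0.068. The call was lost without replicate 1, 3 or 4, at −0.34, −0.21 and −0.30, and held without replicate 2. The second Itga4 probe was not well above background on any array.

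The alternative β partner of α4 is β7, and its gene, Itgb7, lies outside the 10 genes but had the largest change among 11 other integrin subunits tested. Itgb7 intensity was 10.19, 10.02, 10.63 and 10.13 in treated cells and 7.90, 7.93, 8.17 and 7.80 in control cells. The groups lay far apart, and the log2 ratio of 2.29 ± 0.15 (SD, n = 4) was 4.89-fold higher in treated cells (adjusted p = 4.6e-05). It was called under all 16 alternative settings, with values of 2.23 to 3.07. Vcam1, the gene of a cell-surface ligand of α4β1, was higher by 1.556, 1.497 and 1.203 on replicates 1, 3 and 4, and its spot on replicate 2 was left out as an outlier. Its mean from those 3 arrays was 1.42 ± 0.19 (SD, n = 3, adjusted p = 0.00181). Madcam1, the gene of the ligand of α4β7, was at −0.07 ± 0.07 and did not pass (adjusted p = 0.464).

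Itgav encodes αv, which pairs with β1, β3 or β5 among other β subunits and binds RGD-containing ligands such as vitronectin, fibronectin and osteopontin. Its brighter probe had intensities of 10.98, 11.52, 10.98 and 11.75 in treated cells and 10.85, 10.77, 10.63 and 10.71 in control cells. The groups did not overlap, although replicate 1 was only 0.14 apart and replicate 4 was 1.04 apart. The mean log2 ratio was 0.57 ± 0.41 (SD, n = 4), 1.48-fold higher in treated cells (adjusted p = 0.0414). The call was lost without replicate 3 or 4, at 0.64 and 0.41, and with Feature Extraction's ratios, at 0.53 (adjusted p = 0.0762).

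The dimmer Itgav probe had intensities of 7.55, 7.11, 7.57 and 7.47 in treated cells and 6.97, 7.10, 7.10 and 7.02 in control cells. On replicate 2 the channels were level, at a ratio of 0.0013, and the probe was above background in the control channel on 3 of 4 arrays. Its mean of 0.38 ± 0.26 (SD, n = 4), 1.30-fold higher, passed narrowly (adjusted p = 0.0461), and centring on the tested probes gave −0.038. The value was 0.96 with Feature Extraction's ratios, 0.63 without background correction and 0.68 with background subtraction. Without replicate 1, 3 or 4 the call was lost, at 0.31, 0.34 and 0.35. Both Itgav probes thus pointed the same way under loess, and the arrays with the smallest ratio differed between them.

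Among the β partners of αv, neither Itgb3 nor Itgb5 passed. Itgb3 encodes β3, which forms the vitronectin receptor with αv. Its brighter probe had intensities of 11.11, 11.37, 10.88 and 10.68 in treated cells and 11.28, 10.90, 11.19 and 11.50 in control cells. Treated cells were lower on 3 arrays and higher on replicate 2, and the mean was −0.21 ± 0.53 (SD, n = 4, adjusted p = 0.473). Without replicate 2 it was called lower, at −0.43 (adjusted p = 0.0277), and without replicate 4 it was at −0.0045 (adjusted p = 0.990). Median centring and centring on the tested probes turned it to 0.78 and 0.31. The dimmer Itgb3 probe was at −0.017 ± 0.14 with 2 arrays on each side of 0 (adjusted p = 0.888), and at 0.040 under median centring. Itgb5 encodes β5, which pairs with αv alone. Its intensity was 15.07, 14.74, 15.23 and 15.30 in treated cells and 15.00, 14.80, 14.80 and 15.02 in control cells. The mean of 0.18 ± 0.22 (SD, n = 4) did not pass (interval −0.05 to 0.41, adjusted p = 0.210), and without replicate 2 it was called higher, at 0.26 (adjusted p = 0.0473). Without replicate 3 it was at 0.095 (adjusted p = 0.565), and median centring and centring on the tested probes gave 1.21 and 0.74, both called higher.

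Itgb1 encodes β1, the common partner of α1, α3, α4, α5, α6 and α7, and its 2 tested probes moved in opposite directions under loess, though both were above 0 under median centring, at 1.40 for the brighter and 0.39 for the dimmer. The brighter probe had intensities of 12.78, 12.57, 12.71 and 12.87 in treated cells and 12.37, 12.28, 12.26 and 12.47 in control cells. Its groups did not overlap, and the log2 ratio was 0.40, 0.29, 0.45 and 0.41, with a mean of 0.39 ± 0.07 (SD, n = 4), 1.31-fold higher in treated cells (adjusted p = 0.00788). This call was lost without replicate 3, at 0.37 (adjusted p = 0.0551). The dimmer probe had intensities of 9.70, 9.58, 9.78 and 9.86 in treated cells and 10.43, 10.00, 10.20 and 10.42 in control cells. Its groups did not overlap either, and its mean of −0.53 ± 0.15 (SD, n = 4) means that the level fell by 31.0% in treated cells (adjusted p = 0.00625). Centring on the tested probes gave −0.084 for the dimmer probe, not called (adjusted p = 0.488), and 0.92 for the brighter. The lower call of the dimmer probe was thus kept neither there nor under median centring.

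The brighter Itgb1 probe exceeded the dimmer by 1.14, 0.72, 0.87 and 0.96 log2 units on the 4 arrays, a mean of 0.92 ± 0.18 (SD, n = 4). The difference was 1.01 under median centring. An exact sign-flip permutation test, two-sided, gave p = 0.125, the smallest that 4 arrays allow. Both probes carry the accession of the same transcript in the files, so no single direction can be given for Itgb1. By loess, of 3921 genes with 2 or more tested probes, 125 or 3.19% had probes called in both directions. Among the 3 integrin genes with 2 tested probes Itgb1 was the only one.

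**Figure D2:**
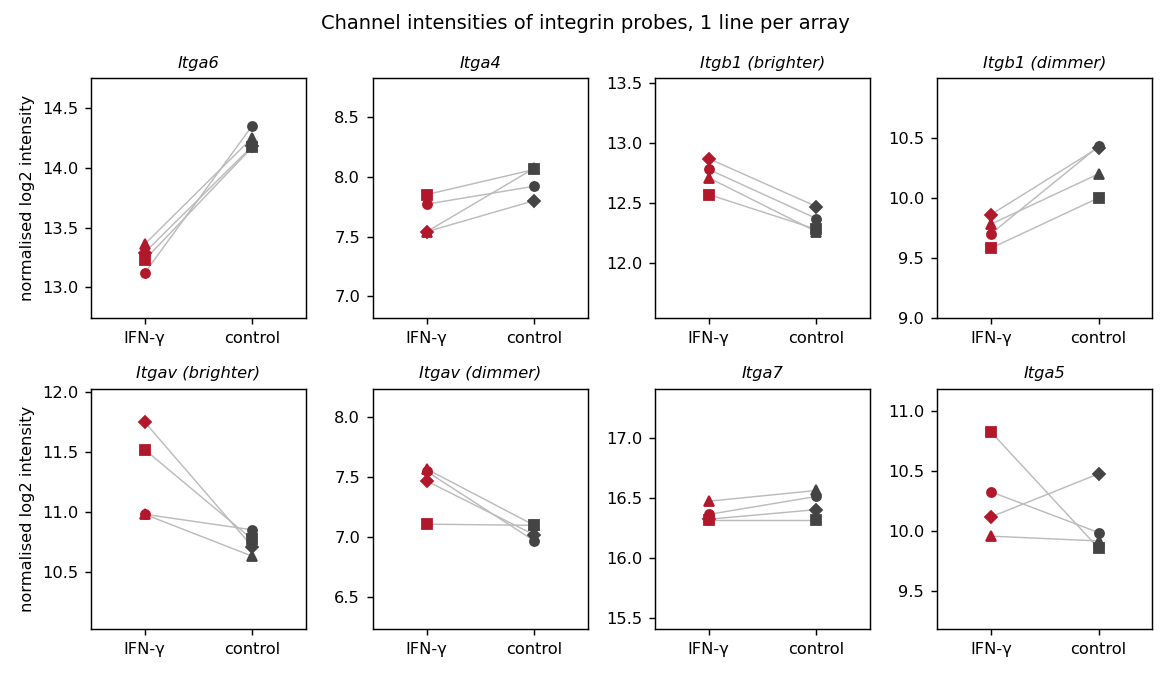
Normalised log2 intensity of 8 integrin probes in IFN-γ-treated cells (left of each panel) and control cells (right), with 1 line per array and axes of equal span. The Itga6 lines rise to the control side without overlap, the 2 Itgb1 panels slope in opposite directions, and the Itga5 lines cross; under median centring the Itga6 ratio was 0.026 and that of the dimmer Itgb1 probe 0.39.

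Because α subunits reach the surface only as pairs, each α log2 ratio was also set against that of Itgb1 on the same array. Against the brighter Itgb1 probe, Itga6 stood at −1.38 ± 0.18, Itga1 at −0.92 ± 0.49, Itga4 at −0.68 ± 0.21 and Itga7 at −0.47 ± 0.12 (SD, n = 4 each), with all 4 arrays below 0. Itga5 stood at −0.14 ± 0.61, Itga3 at −0.06 ± 0.63 and Itgav at 0.18 ± 0.43, with arrays on both sides. The exact permutation p was 0.125 for the 4 genes below 0 on every array and 0.219 after adjustment over the 7 α subunits, in a design that cannot go under 0.125. Against the dimmer Itgb1 probe, a comparison added after the data were seen, Itga6 alone was below 0 on all 4 arrays, at −0.45 ± 0.08. There Itga7 stood at 0.45 ± 0.11, Itga4 at 0.24 ± 0.28 and Itga1 at −0.0016 ± 0.32. These differences are by loess and moved with scaling where the probes differ in brightness. Under median centring the dimmer Itgb1 probe was at 0.39, above Itga4 (0.068) and below Itga1 (0.44). The brighter was at 1.40 there, with Itga3 at 0.77. The order of the α subunits is the same with both probes, since a single value per array is taken from all of them.

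**Figure D3:**
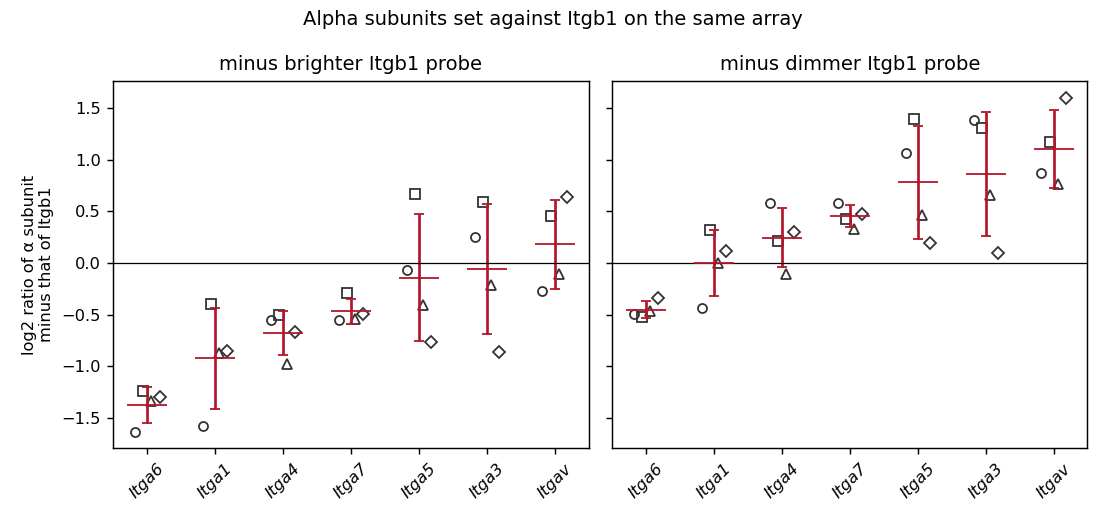
Log2 ratio of each α subunit minus that of Itgb1 on the same array, with 1 symbol per array (circle, square, triangle and diamond for replicates 1 to 4), the mean and whiskers of 1 SD, for the brighter (left) and dimmer (right) Itgb1 probe. Itga6 lies below 0 on all arrays in both panels, and Itga7 lies below 0 on the left and above it on the right.

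Scaling moved the integrin values by amounts that went with the brightness of the probe. Under median centring, 10 of the 13 probes were called higher and 0 lower, beside 16438 higher and 6357 lower of all 28921 tested probes. The median of all tested probes was 0.50 there, and probes of like brightness to most integrin probes had medians of 0.92 to 1.02. For the dimmest, those of Itga3, Itga4 and the dimmer probes of Itgav and Itgb3, the medians of like probes were −0.0044 to 0.45. Against probes of like brightness, the brighter Itgb1 probe stood at 0.40 and the dimmer at −0.53. The Itgav probes stood at 0.56 and 0.44, and Itga4 at −0.27, against a median of 0.34. Each of these lies close to its loess value. Loess likewise takes off the trend with brightness, so this closeness was fixed in advance and is no separate check of the directions.

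**Figure D4:**
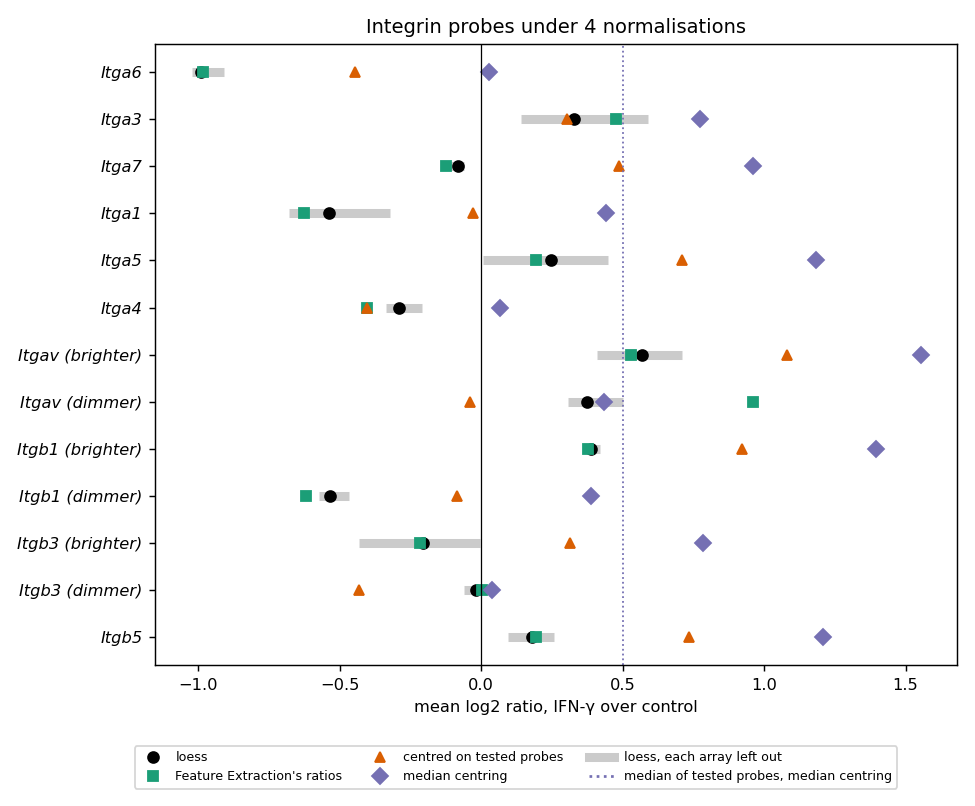
Mean log2 ratio of IFN-γ over control for the 13 tested integrin probes under loess, Feature Extraction's own ratios, centring on the tested probes and median centring, with grey bars for the range of loess means when each array is left out. The dotted line at 0.50 is the median of all tested probes under median centring, where Itga6 lies at 0.026 and the brighter Itgav probe at 1.55.

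The remaining integrin subunits, the ligands and the adaptor proteins were counted from lists of 5 groups, with each gene represented by its brightest tested probe, beside 18.8% of all tested genes called higher and 12.9% lower. Of the other integrin subunits, 11 of 16 were tested. Of these, 3 rose and 1 fell, 7 had no call, and the median was 0.02 against 0.03 for all genes. Itga11, a collagen receptor subunit, rose by 0.42 ± 0.18 (SD, n = 4, adjusted p = 0.0162), and Itga8 was the other α subunit called higher, at 0.30. The Itga11 call was lost without replicate 1 or 3, at adjusted p of 0.0672 and 0.0863. Itgb6, which pairs with αv, fell by 0.40 (adjusted p = 0.0444), the one lower call, and the list had 0 lower calls with Feature Extraction's ratios, without background correction, with background subtraction, without the filter on dim probes and without replicate 1, 3 or 4. Median centring and centring on the tested probes gave 3 and 6 lower calls. Of all 28921 tested probes, median centring called 16438 higher and 6357 lower, and centring on the tested probes 10477 and 10981. Counts of the other groups under these scalings stand beside the same numbers. Itgam, the αM subunit best known from leukocytes, was at −0.14 ± 0.35 and did not pass, with 0.90 under median centring. This probe's mean log2 intensity was 15.86 in treated and 16 in control cells. The leukocyte marker Ptprc was at 6.5 and 6.49, and whether the bright probe measures Itgam was not tested. The other Itgam probes had log2 ratios of −0.23 and −0.11. Probes of Itga2, Itgad and Itgax were not tested, and Itga10 and Itgae were not matched.

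All 17 genes of laminins and other basement membrane ligands were tested, and 6 of them rose, 2 fell and 9 had no call, against 15 higher and 1 lower under median centring. Their median by loess was 0.11. Lama4, the laminin α4 chain, rose by 0.97 ± 0.23 (SD, n = 4, adjusted p = 0.00268). Its intensity was 9.38, 9.67, 9.40 and 9.34 in treated cells and 8.46, 8.39, 8.45 and 8.61 in control cells, with no overlap. Nid2, Col4a1, Nid1, Lamc1 and Lamb1, which encode nidogens, a collagen IV chain and the laminin γ1 and β1 chains, rose by 0.36 to 0.90. Lamb3, the β chain of laminin-332, fell by 1.25 (SD 0.31, n = 4, adjusted p = 0.00247), with 10.94, 11.05, 10.43 and 10.66 in treated cells and 12.18, 11.86, 11.89 and 12.14 in control cells. Under median centring Lamb3 was at −0.26 and not called (adjusted p = 0.0705). By loess Lama5 was the other gene called lower, at −0.29 (adjusted p = 0.0266), and Lama2 (−0.04), Lamb2 (−0.33) and Col4a2 (0.11) did not pass. Hspg2, which encodes perlecan, was at 0.47 ± 0.36 and did not pass (adjusted p = 0.0522), while its second probe was called higher at 0.83.

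Fibronectin, RGD, VCAM and collagen ligands had the highest share of calls among the 5 groups, 63.2% by loess beside 31.7% of all tested genes. Of 20 genes 19 were tested, 11 rose, 1 fell and 7 had no call, against 17 higher and 1 lower under median centring. The median was 0.46, and Vtn was not tested. Spp1, which encodes osteopontin, a ligand of αv integrins, rose by 1.72 ± 0.27 (SD, n = 4, adjusted p = 0.000562). Its intensity was 15.56, 15.30, 15.87 and 15.80 in treated cells and 14.05, 13.82, 13.86 and 13.92 in control cells. Tgfb2, whose relatives Tgfb1 and Tgfb3 are released from latency by αv integrins, fell by 1.47 (SD 0.10, n = 4, adjusted p = 0.000123), and its second probe gave −1.77. The first was at −0.50 under median centring, still called. Fn1, which encodes fibronectin, was at 0.24 ± 0.50 and did not pass (adjusted p = 0.381), with 2 arrays on each side of 0, while median centring gave 1.29, called higher.

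The focal adhesion adaptors and kinases, which link integrin tails to actin, had calls for 21.4% of the tested genes by loess. Of 30 genes 28 were tested, 3 rose, 3 fell and 22 had no call, and the median was 0.04. Under median centring 25 were called higher and 2 lower, and with centring on the tested probes 20 higher and 3 lower. Nedd9, a docking protein of the Cas family, rose by 0.67 ± 0.13 (SD, n = 4, adjusted p = 0.00303). Lims2, a partner of integrin-linked kinase, fell by 0.60 (SD 0.15, n = 4, adjusted p = 0.00493) and was at 0.40 under median centring. Flna, which encodes filamin A, was at −0.03 ± 0.24 and did not pass, with 1.02 under median centring. Tln1, Vcl, Ilk, Ptk2 and Pxn had values of −0.20 to 0.20 by loess and did not pass. Tln2 was called lower, at −0.24 (adjusted p = 0.0362). Fermt2 (−0.36), Lims1 (−0.29), Parvb (0.16) and Rsu1 (0.20) did not pass.

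Among 14 membrane partners, 3 rose, 3 fell and 8 had no call by loess, and the median was −0.02. Under median centring 13 were called higher and 0 lower, and with centring on the tested probes 9 higher and 0 lower, so no lower call given here was kept under these scalings. Cav3, the caveolin of muscle, fell by 0.70 (SD 0.46, n = 4, adjusted p = 0.0301) and was at 0.29 under median centring. Cd47, a partner of β3 integrins, rose by 0.59 ± 0.32 (SD, n = 4, adjusted p = 0.0201), and its second probe, at 0.46, did not pass. The first probe's call was lost with Feature Extraction's ratios, at 0.51 (adjusted p = 0.0551), and without replicate 1 or 3 (adjusted p = 0.0716 and 0.0735). Cd151, a tetraspanin that binds the laminin receptors α3β1 and α6β1, fell by 0.50. Cd63, another tetraspanin, was at 0.03 ± 0.41 and did not pass.

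**Figure D5:**
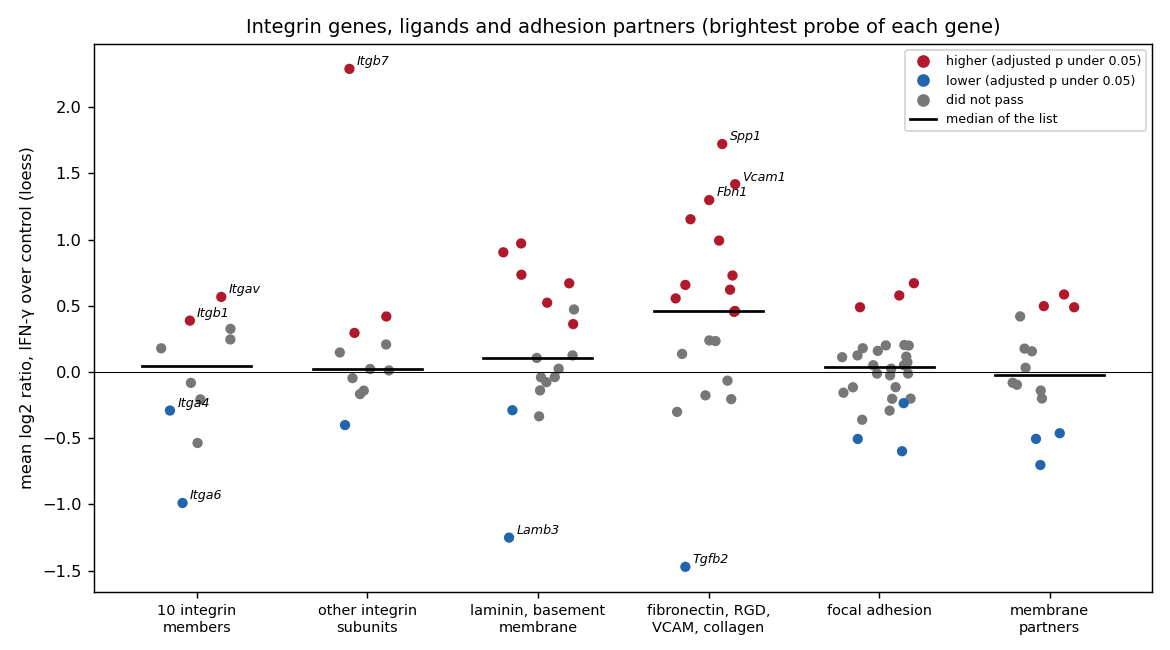
Mean log2 ratio of IFN-γ over control, by loess, for the brightest tested probe of each gene in the 10 integrin genes and 5 related groups, with a bar at each group's median. Itgb7 lies highest at 2.29 and Tgfb2 lowest at −1.47, and the group of fibronectin, RGD, VCAM and collagen ligands has a median of 0.46; under median centring Itga6 was at 0.026 and Itga4 at 0.068.

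Markers of other cell types were summed on the linear scale of normalised intensity, so each sum mainly follows its brightest genes. Among fibroblast markers this was Cd248, at a mean log2 intensity of 12.01 in control cells. Among leukocyte markers Nkg7 (10.13) and Csf1r (9.98) were brightest there, and among endothelial markers Kdr (11.60, with Pecam1 at 8.49). By loess, the marker calls stand beside 18.8% of all tested genes called higher and 12.9% lower. The 5 tested fibroblast markers summed to 5099 to 5968 in treated cells and 5736 to 6309 in control cells, 2 rose, 1 fell and 2 did not pass. Pdgfra was at 0.67 ± 0.17 and Pi16 at −1.39 ± 0.35, with Cd248 at −0.13 not called (0.87 under median centring) and Tcf21 never well above background. The 7 tested macrophage and leukocyte markers summed to 2627 to 3170 in treated cells and 3086 to 3560 in control cells, 0 rose and 2 fell, Cd3e at −0.44 and Csf1r at −0.40, and both were above 0 under median centring, at 0.33 and 0.50. The other 2 Csf1r probes were at −0.06 and 0.03, Nkg7 was at −0.07 (0.86 under median centring), and S100a8 and Lyz2 were never well above background. The 4 tested endothelial markers summed to 1784 to 2615 in treated cells and 3265 to 4585 in control cells, with Kdr at −1.02 ± 0.28 called lower and Pecam1 at −0.19 not called. Under median centring these were at −0.022, no longer called, and 0.36. Cdh5, Emcn and Esam, which define endothelial cells, were never well above background. Their part in the integrin values was not tested.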

How the data were processed

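RNA of C2C12 cells was measured on 4 Agilent arrays of 2 colours, with IFN-γ-treated RNA in Cy5 and untreated control RNA in Cy3 on each. Per the submitters' processing notes, the authors read the spot intensities with version 10.7.3.1 of Agilent Feature Extraction. They also hold the dye-normalised log10 ratio of Cy5 to Cy3 for each spot, per the file headers. The authors' deposited value table holds log2 values, since its slope on the log10 ratios was 3.32 with r of 0.9995 to 1 on the 4 arrays. It runs as Cy5 over Cy3, with medians of −0.12 to −0.11 per column, and how it was centred is unknown.

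Median spot intensities were background-corrected with normexp (offset 50) and normalised by loess within each array in limma 3.58.1 under R 4.3.3. Control spots had weight 0, spots with an outlier flag were dropped, and repeat spots of a probe were averaged. Of 39429 probes, 26055 received 1 mouse gene symbol by accession from a RefSeq gene table of assembly GRCm38.p6 and 0 received several. The file header names another build, so no gene coordinates from that table are printed. Testing was limited to probes that at least 3 arrays showed well above background in 1 channel, which left 28921. For each, limma (lmFit, eBayes) tested the mean log2 ratio against 0, two-sided, at 0.05 after Benjamini-Hochberg adjustment over these probes. Every adjusted p printed for a probe comes from this limma model unless another test is named. Channel intensities were put on 1 scale with loess and Aquantile normalisation. The steps were tested on simulated data in which few probes changed, as many raised as lowered, so that test cannot bear on the choice of scaling.

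Each ratio pairs a treated and a control sample on 1 array, and the unpaired methods' t-test served as the fit without that pairing. Other alternatives changed the background correction, scaling, filter, probe rule and arrays used. Named genes were all 10 members, the up to 2 called genes with the largest change and the brightest gene not called of each list, and the 3 genes nearest in pattern to the member with the largest change. Vcam1, Madcam1, Cd151 and the other genes named beyond these were chosen after their values were seen. The members and lists were chosen with earlier results of these data known.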

Additional observations from a re-analysis of the deposited data

Results flagged for a closer look

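In 2 of 39 probes checked, 1 array lay apart from the other 3 by Dixon's criterion for 4 values, and chance alone sets about 1 group in 20 apart. Itga11, a collagen receptor subunit, had its lowest log2 ratio on replicate 4, at 0.15, with 0.50, 0.52 and 0.51 on replicates 1 to 3. Cd63 had its lowest log2 ratio on replicate 2, at −0.58, with 0.27, 0.29 and 0.15 on replicates 1, 3 and 4. None of the 13 tested integrin probes of the 10 genes passed the criterion, and Itga6, lowest on replicate 1 at −1.23, missed it narrowly.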

How the results depend on the processing

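The arrays number 4 with 1 dye orientation and the signal of the dim probes lies near background, which limits all calls. The 3 higher and 3 lower calls among integrin probes became 10 and 0 with median centring, and 5 were higher when arrays were centred on the tested probes. With the mean of each gene's probes 1 was higher, and without the replicate block, by the unpaired methods' t-test, also 1 was higher. Leaving out each array gave 0 to 4 higher calls (fewest without replicate 3, most without replicate 2) and 2 to 5 lower calls (most without replicate 2).

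Over all tested probes, calls higher and lower were 4778 and 3633 (56.8% higher). They were 16438 and 6357 with median centring (72.1% higher) and 10477 and 10981 with centring on the tested probes (48.8% higher). They were 3111 and 2173 with the brightest probe of each gene, 3169 and 2092 with the mean of each gene's probes, 3948 and 2365 without the replicate block (652 of these also 2-fold, the methods' threshold, with no integrin probe), and 1913 to 6331 and 1151 to 5546 with each array left out. Over the gene lists, 29 higher and 18 lower calls became 90 higher with median centring and 67 higher with centring on tested probes, and 19 to 35 higher and 8 to 24 lower with each array left out.

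Median centring turned the direction of Itga1 (0.44), Itga4 (0.068), Itga6 (0.026), Itga7 (0.96), the dimmer Itgb1 probe (0.39), both Itgb3 probes (0.78 and 0.040), Itgam (0.90), Lims2 (0.40), Flna (1.02), Cav3 (0.29), Acta1 (0.68), Cd248 (0.87), Cd3e (0.33), Csf1r (0.50), Nkg7 (0.86) and Pecam1 (0.36). Centring on the tested probes turned Itga7 (0.49), the dimmer Itgav probe (−0.038), the brighter Itgb3 probe (0.31), Itgam (0.42), Flna (0.55), Acta1 (0.21), Cd248 (0.40), Csf1r (0.029) and Nkg7 (0.39). Feature Extraction's ratios and the authors' value table both turned the dimmer Itgb3 probe (0.0023) and Flna (0.0086). Without background correction the dimmer Itgb3 probe was at 0.077, with background subtraction Flna was at 0.022, and with the mean of its probes Itgb1 was at −0.073. Leaving out each array gave −0.14 to 0.039 for Flna, −0.054 to 0.24 for Cd63 and −0.060 to 0.049 for the dimmer Itgb3 probe.

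Against the second tested probe of Itgb1, the differences of Itga3 (0.86), Itga4 (0.24), Itga5 (0.78) and Itga7 (0.45) turned. With Feature Extraction's ratios that of Itga3 was 0.10, and with each array left out Itga3 gave −0.28 to 0.21 and Itga5 −0.41 to 0.066. The cause of these changes was not tested.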
